A study of Mus musculus with 36 samples.

Results

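The kidney takes up glutamine from blood and urine and breaks it down to ammonia and bicarbonate, and 4 genes of this route were followed through 5 diets: Slc38a3, Glud1, Glul and Slc9a3. Every probe set (a group of short array probes that reports 1 transcript) with the single symbol of 1 of them was taken, which gave 5 of the 45141 probe sets on the array and covered 3 of the 4 genes. Slc38a3 and Glud1 had 2 probe sets each and Slc9a3 had 1. Glul, glutamine synthetase, carried no single-symbol probe set in the annotation used and was not analysed here.

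Total RNA of whole kidneys was measured on 36 arrays, 1 mouse each. All mice were male C57BL/6, 10 to 12 weeks old and kept on the SDS chow for 7 days beforehand. The groups were 3 days of fasting (n = 4) with its own SDS-fed mice (n = 5), a protein-free (n = 5), CHO-free (carbohydrate-free, n = 5) or fat-free (n = 4) diet given for 3 days with mice on the Control diet (n = 5), and 2 weeks of 30% dietary restriction (30%DR, n = 5) with its own SDS-fed mice (n = 3). The protein-free diet held carbohydrate in place of protein, and the CHO-free diet held protein in place of carbohydrate. The fat-free diet held protein in place of fat, with carbohydrate as in the Control diet. The paper reports that mice ate less of these diets when fed them for longer. Food intake of the mice on the arrays is not in the labels. The 30%DR mice received their ration once a day. The protein-free, CHO-free and fat-free comparisons share the 5 Control arrays. The fasting cohort was hybridized at another time and normalized apart from the other 27 arrays, so levels are not set side by side across the cohorts. Since whole kidney was sampled, less RNA per cell and fewer cells of a type cannot be told apart. The 7 measured proximal tubule markers averaged 9.09 to 12.16 on the log2 scale over the 36 arrays, and the 3 skeletal muscle markers 2.73 to 3.33.

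In the proximal tubule, glutamine enters the cell, is split in the mitochondrion to glutamate and ammonium, and glutamate is oxidised to alpha-ketoglutarate, which feeds gluconeogenesis and yields new bicarbonate. The kidney raises this pathway in acidosis, and the ammonium leaves in the urine as carrier of acid. Slc38a3 (SNAT3) is the sodium-coupled glutamine transporter of the basolateral side of the tubule cell. Glud1 is mitochondrial glutamate dehydrogenase, which releases the second ammonium. Slc9a3 (NHE3) is the sodium-proton exchanger of the luminal side, which secretes protons and can carry ammonium. In the RefSeq annotation of mouse GRCm38.p6, Slc38a3 lies at chr9:107651154-107668968, Glud1 at chr14:34310727-34345033 and Slc9a3 at chr13:74086255-74169442.

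RefSeq promoters matched 2 of the 3 measured genes. The 250 bases before the start are shown for both, Glud1, which rose in 2 diets, and Slc9a3, which was called in none. Slc38a3 had no promoter entry. The Glud1 window is chr14:34310477-34310726 and the Slc9a3 window is chr13:74121163-74121412, both on the plus strand. The Slc9a3 window lies inside the annotated locus, before the start that the RefSeq promoter table takes for the gene. Capitals mark the GC box (GGGCGG) on either strand and, in Slc9a3, the E-box (CACGTG), none of which overlap.
Glud1: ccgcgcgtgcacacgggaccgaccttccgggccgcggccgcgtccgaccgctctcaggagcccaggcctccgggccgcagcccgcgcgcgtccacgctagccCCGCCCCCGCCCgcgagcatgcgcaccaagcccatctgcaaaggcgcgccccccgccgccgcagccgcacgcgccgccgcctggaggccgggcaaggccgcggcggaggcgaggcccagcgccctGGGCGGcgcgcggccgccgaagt
Slc9a3: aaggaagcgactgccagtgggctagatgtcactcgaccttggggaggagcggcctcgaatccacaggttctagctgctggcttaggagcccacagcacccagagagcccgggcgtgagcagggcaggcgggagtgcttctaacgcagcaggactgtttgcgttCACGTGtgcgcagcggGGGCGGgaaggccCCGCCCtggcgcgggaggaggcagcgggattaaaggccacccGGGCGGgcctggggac
G and C made up 82% of the Glud1 window and 67.6% of the Slc9a3 window. Each held 3 GC boxes, a motif that 32.7% of 32851 mouse promoter windows of this length hold at least once. The single E-box of Slc9a3 is a motif held by 6.02% of them. A further 5 motifs were searched on both strands and are in neither window. These were the CCAAT box, with those letters, which 33.8% of promoter windows hold, the TATA box (TATAAA), which 12.4% hold, the half-site of the cAMP response element (TGACG), which 17.8% hold, the FOXO site (GTAAACA), which 3.17% hold, and the half-site of the glucocorticoid receptor (AGAACA), which 16.1% hold.

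The 2 genes that bring glutamine in and oxidise glutamate were higher in fasted and in CHO-free kidneys, and Slc38a3 had the highest fold change of any probe set on the array under the CHO-free diet. A call needed a fold change of 1.5 or more together with a limma false discovery rate below 5%, adjusted across the whole array, and was read on the brighter (main) probe set of the gene. By this rule 2 of the 3 measured genes were called after fasting, where 5.31% of all probe sets were called, and 2 of 3 on the CHO-free diet, where 3.60% were called. None of the 3 was called in the other diets, where the share over all probe sets was 0.738% for the protein-free diet, 0% for the fat-free diet and 0.919% for 30%DR. At an unadjusted limma p under 0.05, which is no call, there were 1, 2 and 2 of the 3 genes in those diets, where 12.9%, 4.63% and 12.4% of all probe sets reached it.

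**Figure D1:**
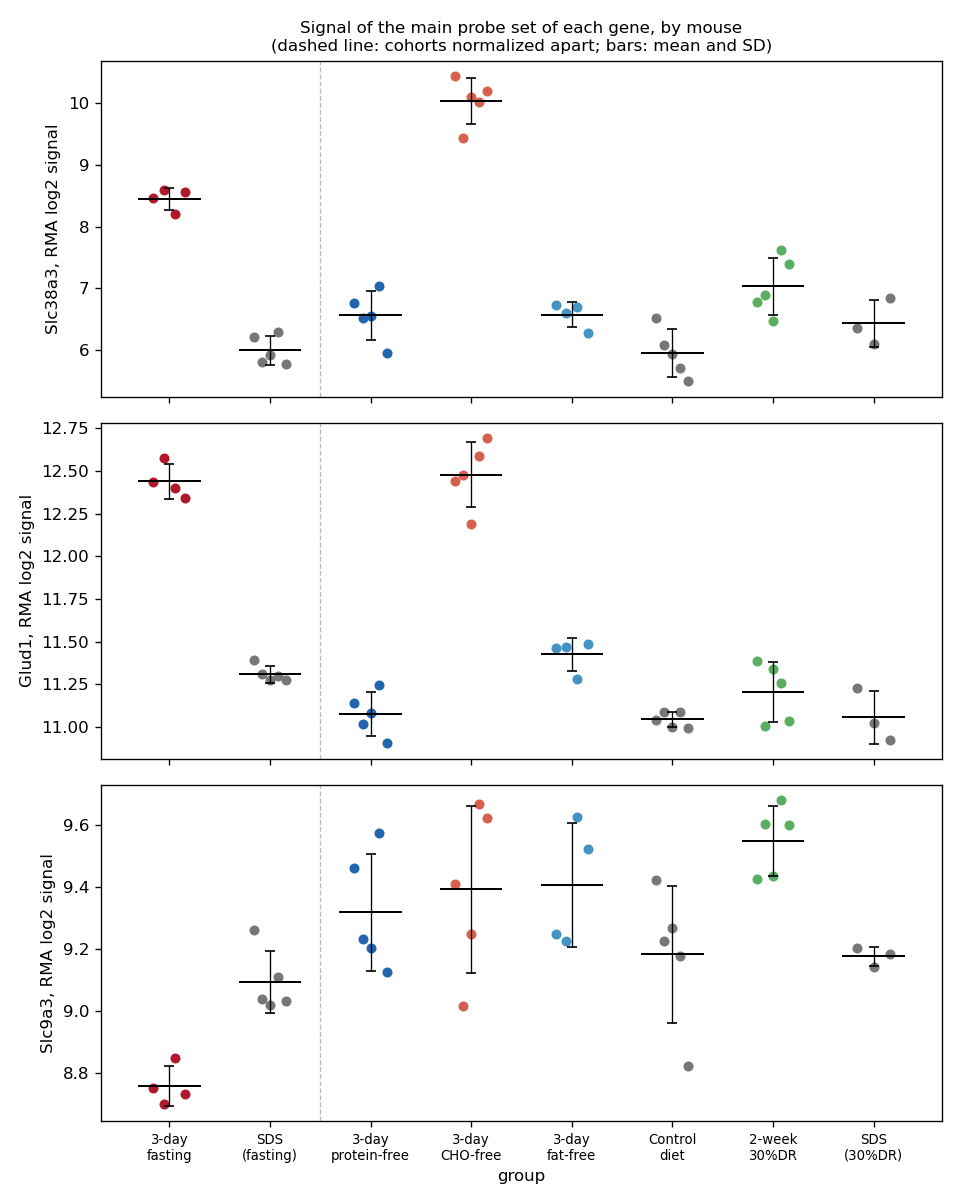
RMA log2 signal (vertical axis) of the main probe set of Slc38a3, Glud1 and Slc9a3 in each mouse, by group, with a line at the group mean and a bar of 1 SD. The dashed line parts the fasting cohort, which was normalized separately. All fasted and CHO-free mice lie above every mouse of their control group for Slc38a3 and Glud1.

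Slc38a3 gave log2 signals of 8.47, 8.59, 8.20 and 8.57 in the 4 fasted mice, against 6.21, 5.81, 5.92, 6.29 and 5.77 in SDS-fed mice. The groups did not overlap, as for 17.2% of all probe sets in this comparison, and the lowest fasted mouse stood far above the highest SDS-fed mouse. The log2 fold change was 2.46 (SE 0.12, limma adjusted p = 4.25e-07), a 5.49-fold higher signal with a 95% interval of 4.56 to 6.60. This placed it at rank 20 from the top among all probe sets.

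On the CHO-free diet Slc38a3 read 10.44, 9.44, 10.11, 10.02 and 10.19, against 6.52, 6.08, 5.94, 5.72 and 5.49 in Control mice. Even the lowest CHO-free mouse, TS32, lay above every mouse of the other 5 groups of its cohort, and 5.39% of all probe sets separated CHO-free from Control mice. The log2 fold change was 4.09 (SE 0.22, limma adjusted p = 4.44e-12), or 17.0-fold with an interval of 12.5 to 23.3, rank 1 of the array. In this diet protein took the place of carbohydrate, so more protein, no carbohydrate and any lower food intake cannot be told apart. Their part in the result was not tested.

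The protein-free diet gave Slc38a3 signals of 6.76, 6.52, 6.56, 7.04 and 5.96, overlapping the Control mice. Its log2 fold change of 0.62 (95% interval 0.16 to 1.07) did not pass after adjustment (limma adjusted p = 0.182). The fat-free diet gave 6.73, 6.60, 6.70 and 6.27, also overlapping Control, with a log2 fold change of 0.63 (95% interval 0.15 to 1.11, adjusted p = 0.998). These 2 diets gave nearly the same mean, and both intervals lay above 0 before adjustment for the number of probe sets. Under 30%DR the mice read 6.78, 6.90, 6.47, 7.62 and 7.40, against 6.35, 6.10 and 6.84 in SDS-fed mice, a log2 fold change of 0.60 (95% interval 0.08 to 1.12, adjusted p = 0.307). Control mice themselves were 0.48 log2 units lower than the SDS-fed mice of the 30%DR cohort (log2 fold change -0.48, 95% interval -1.005 to 0.04, adjusted p = 0.820), and 0.0465% of probe sets were called in that comparison.

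The second Slc38a3 probe set was dim. Over the 27 arrays it read 2.96 to 3.91, within the span of the array's 23 nonspecific control probe sets (means of 2.15 to 4.44) and below or near the median of all probe sets (3.71). Its log2 fold change was 0.54 on the CHO-free diet (limma adjusted p = 0.00315), which misses the fold minimum, and 0.01 after fasting. Averaging both probe sets therefore gave a smaller log2 fold change for Slc38a3, 2.32 on the CHO-free diet and 1.23 after fasting, and both stayed called.

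Glud1 was among the brightest transcripts, its main probe set exceeding 98.9% of all probe sets. Its log2 signals were 12.43, 12.58, 12.40 and 12.34 in fasted mice, against 11.40, 11.31, 11.27, 11.30 and 11.28 in SDS-fed mice. The gap between the groups was many times the spread within either. The log2 fold change was 1.13 (SE 0.06, limma adjusted p = 7.41e-07), or 2.18-fold.

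On the CHO-free diet Glud1 read 12.44, 12.47, 12.19, 12.59 and 12.69, against 11.05, 11.09, 11.004, 11.09 and 10.996 in Control mice. On this main probe set the Control mice were nearly identical and all CHO-free mice were above them. The log2 fold change was 1.43 (SE 0.09, limma adjusted p = 1.17e-10), or 2.70-fold, rank 28 of the array. The second Glud1 probe set was called as well, with log2 fold changes of 1.02 after fasting and 1.16 on the CHO-free diet. It read 11.51 to 12.29 in CHO-free and 10.68 to 11.01 in Control mice, a wider spread in both groups than on the main probe set.

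The fat-free diet gave Glud1 signals of 11.46, 11.47, 11.28 and 11.49, all above the 5 Control mice. The second probe set did not overlap either, with 11.19 to 11.28 in fat-free mice and 10.68 to 11.01 in Control mice. The log2 fold changes were 0.38 and 0.35, short of the fold minimum, and neither passed limma's adjustment (adjusted p = 0.946 and 0.998). Over all probe sets, 1.61% did not overlap in this comparison, and 2089 had an unadjusted limma p under 0.05 with none called.

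Protein-free mice had Glud1 signals of 11.14, 11.02, 11.08, 11.25 and 10.91, on both sides of the Control mice. The log2 fold change was 0.03 (95% interval -0.16 to 0.22, limma adjusted p = 0.930). Under 30%DR Glud1 read 11.39, 11.004, 11.34, 11.26 and 11.03, against 11.23, 11.03 and 10.92 in SDS-fed mice, a log2 fold change of 0.15 (95% interval -0.07 to 0.37, adjusted p = 0.656). Both groups overlapped their controls.

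Slc9a3 was called in no diet. Fasted mice read 8.75, 8.70, 8.85 and 8.73, against 9.26, 9.04, 9.02, 9.11 and 9.03 in SDS-fed mice, so every fasted mouse was lower. The log2 fold change was -0.34 (SE 0.07, limma adjusted p = 0.00391), which met the false discovery rate, as 19.6% of all probe sets did, and missed the fold minimum.

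Under 30%DR Slc9a3 read 9.43, 9.60, 9.44, 9.68 and 9.60, against 9.20, 9.14 and 9.18 in SDS-fed mice. Every restricted mouse was higher, in a comparison where 8.42% of all probe sets did not overlap, but the log2 fold change of 0.37 (95% interval 0.09 to 0.66) did not pass (limma adjusted p = 0.216). The CHO-free diet gave 9.41, 9.02, 9.25, 9.67 and 9.62, against 9.42, 9.23, 9.27, 9.18 and 8.82 in Control mice, with wide overlap and a log2 fold change of 0.21 (95% interval -0.04 to 0.46, adjusted p = 0.294). Protein-free mice lay between 9.13 and 9.57 and fat-free mice between 9.23 and 9.63, with log2 fold changes of 0.14 and 0.22 that did not pass.

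The difference between diets was tested in the model of the 27 arrays. Protein-free mice were lower than CHO-free mice in Slc38a3 by a log2 difference of -3.47 (limma adjusted p = 1.20e-10) and in Glud1 of -1.40 (adjusted p = 1.25e-10), where 2.44% of all probe sets were called. CHO-free exceeded fat-free mice by 3.46 for Slc38a3 (adjusted p = 1.06e-09) and by 1.05 for Glud1 (adjusted p = 4.16e-07), where 1.25% were called. Both genes thus separated the CHO-free diet from the 2 diets that share its control group.

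The effect of 30%DR, taken against its SDS-fed mice, was smaller than that of the CHO-free diet, taken against Control, by a log2 difference of -3.49 for Slc38a3 (limma adjusted p = 1.76e-06) and -1.28 for Glud1 (adjusted p = 1.30e-05), where 0.620% of probe sets were called. The difference between protein-free and fat-free mice did not pass for either gene, where 0.241% were called, with differences of -0.01 for Slc38a3 (95% interval -0.49 to 0.47) and -0.35 for Glud1 (95% interval -0.55 to -0.15, adjusted p = 0.153). No difference between diets passed for Slc9a3, the largest of the 4 being 0.16 (95% interval -0.21 to 0.54). Fasting was not tested against the other diets because its arrays were normalized apart.

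Ordered by mean, Slc38a3 was highest in CHO-free mice at 10.04, followed by 30%DR at 7.03, fat-free at 6.58, protein-free at 6.57, SDS (30%DR) at 6.43 and Control at 5.95. Only the first step passed (CHO-free over 30%DR, 3.01, limma adjusted p = 1.45e-09). For Glud1 the order was CHO-free (12.48), fat-free (11.43), 30%DR (11.21), protein-free (11.08), SDS (11.06) and Control (11.05), and again only the first step passed (1.05). For Slc9a3 the means ran from 9.55 in 30%DR to 9.18 in SDS-fed mice, and none of the 5 steps between neighbours passed.

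The CHO-free arrays also differed in a measure of RNA quality. The array carries control probe sets for the 3' and 5' ends of Gapdh, whose difference grows as RNA is degraded, and it averaged 1.85 ± 0.62 in CHO-free mice and 0.82 ± 0.14 in Control mice (log2, SD, n = 5 each; exact permutation test, 2-sided, p = 0.00794, adjusted over 6 comparisons 0.0476). It averaged 1.34 ± 0.59 in protein-free mice (n = 5, adjusted p = 0.167) and 1.27 ± 0.37 in fat-free mice (n = 4, adjusted p = 0.0714, same exact permutation test), both above the Control mean. Under 30%DR it was 1.59 ± 0.50, against 1.27 ± 0.41 in SDS-fed mice. After fasting it was 0.93 ± 0.09, against 0.88 ± 0.23 in SDS-fed mice. With this difference as a covariate Slc38a3 had a log2 fold change of 3.73 (limma adjusted p = 1.12e-09) and Glud1 of 1.44 (adjusted p = 3.00e-08) on the CHO-free diet. Without the 2 CHO-free mice of highest difference, TS34 and TS35, a choice made after seeing the data, the values were 4.08 and 1.49. TS32, whose difference of 0.98 was close to that of the Control mice, read 9.44 for Slc38a3, the lowest of its group, and 12.47 for Glud1. The Gapdh difference did not overlap between the groups, at 0.98 to 2.45 in CHO-free and 0.65 to 0.96 in Control mice. The covariate therefore cannot part diet from RNA quality in this comparison. The part of RNA quality in the result was not tested.

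**Figure D2:**
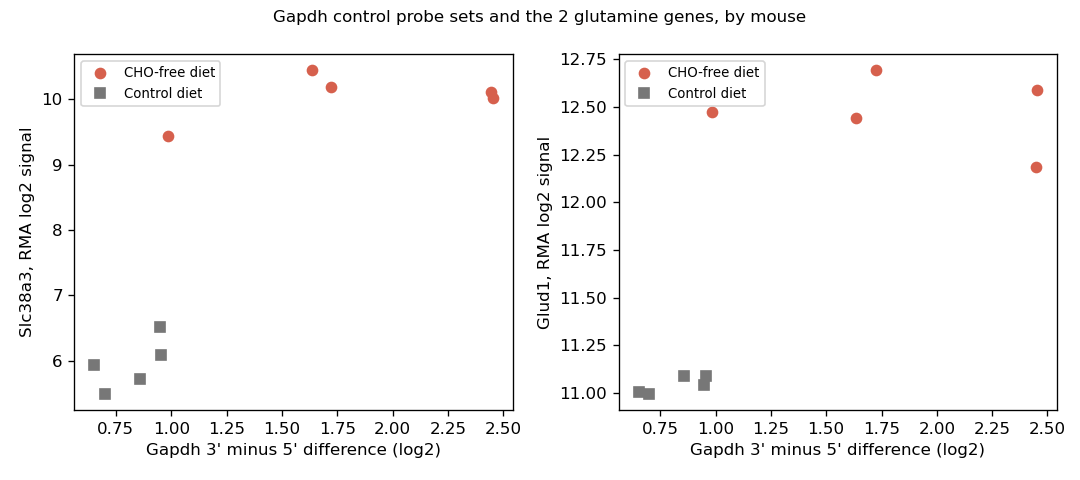
Log2 signal of Slc38a3 and Glud1 (vertical axes) against the Gapdh 3' minus 5' difference (horizontal axis, log2), 1 point a mouse, for CHO-free (circles) and Control (squares). The CHO-free mouse nearest to Control, at 0.98, reads 9.44 for Slc38a3, the lowest of its group, and the highest Control mouse reads 6.52. No CHO-free mouse lies within the Control range of the horizontal axis.

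Markers of kidney cell types moved with these diets in part. The mean of the 7 proximal tubule markers, the cells where the pathway resides, overlapped between groups, with 10.56 to 10.76 in CHO-free and 10.46 to 10.98 in Control mice, and 10.42 to 10.61 in fasted and 10.35 to 10.77 in SDS-fed mice. None of the 7 was called on the CHO-free diet. There the glucose transporter Slc5a2 (log2 fold change -0.51), the inositol oxygenase Miox (-0.49) and Slc5a12 (-0.47) met the false discovery rate and missed the fold minimum. The rest of the 7 did not meet that rate. After fasting Slc5a2 (log2 fold change -0.89) and Miox (-0.97) were called lower and the organic anion transporter Slc22a8 (0.77) higher. The mean of the 5 intercalated cell markers was 8.34 to 8.57 in CHO-free mice and 7.68 to 8.30 in Control mice. Of the 5, 2 were called higher: Slc4a1, the chloride-bicarbonate exchanger (log2 fold change 1.09), and the water channel Aqp6 (0.93). Atp6v0d2 (-0.06), Foxi1 (0.14) and Slc26a4 (-0.17) were not called. The mean of the 8 leukocyte markers was 5.32 to 5.59 in CHO-free and 5.68 to 6.36 in Control mice, with 2 called lower, and 5.68 to 5.88 in fasted and 6.21 to 6.67 in SDS-fed mice, with 5 called lower. Of the other lists, the mean of the 5 principal cell markers was 7.96 to 8.13 in CHO-free and 7.44 to 7.90 in Control mice, with none called. Among them Fxyd4 (log2 fold change 0.58) and Aqp2 (0.51) met the false discovery rate and missed the fold minimum, and the rest did not meet that rate. After fasting the means did not overlap for distal convoluted tubule markers (9.002 to 9.086 in fasted and 9.31 to 9.59 in SDS-fed mice, 2 of 4 called lower), thick ascending limb markers (11.20 to 11.25 in fasted and 11.26 to 11.40 in SDS-fed mice, 0 of 5 called) and red blood cell precursor markers (8.09 to 8.46 in fasted and 8.85 to 9.81 in SDS-fed mice, 2 of 2 called lower). Of the thick ascending limb markers, Cldn16 (-0.26) and Kcnj1 (-0.45) met the false discovery rate after fasting and missed the fold minimum, and the rest did not meet that rate. Over all genes, read on 1 probe set each, 6.45% were called after fasting and 4.11% on the CHO-free diet. Among single probe sets, 17.2% did not overlap after fasting and 5.39% on the CHO-free diet. The part of these markers in the results was not tested.

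The other genes of the pathway came from 8 lists of 103 genes, 87 of them measured and the 3 genes above included. Fasting raised 13 and lowered 7 of the 87, the CHO-free diet raised 7 and lowered 9, the protein-free diet raised 2, 30%DR raised 1 and lowered 1, and none was called on the fat-free diet. At an unadjusted limma p under 0.05, which is no call, the fat-free diet had 10 of the 87 genes. Over all probe sets it had 2089 of 45141, or 4.63%, a smaller share than in the lists. Read on 1 probe set a gene, the shares called over all 17097 genes were 6.45% for fasting, 4.11% for CHO-free, 1.02% for protein-free, 1.11% for 30%DR and 0% for fat-free. The median log2 fold change of the 87 was 0.02 after fasting and 0.06 on the CHO-free diet, against -0.01 and 0.02 over all genes, with members on both sides of 0. Calls took up 23.0% of the 87 after fasting and 18.4% on the CHO-free diet, above the shares over all genes, in lists chosen with earlier results of these arrays known.

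Among the 16 genes of glutamine and amino acid entry, fasting raised 2 and lowered 1, and the CHO-free diet raised 3 and lowered 1. Of the transporters closest to Slc38a3, Slc38a1 was 0.62 higher on the CHO-free diet (log2, limma adjusted p = 5.61e-04), and Slc38a2 did not pass there (0.38, adjusted p = 0.141) or after fasting (0.06). Slc38a1 lay close to the fold minimum and was not called without any one of 4 of the 10 mice (Control TS29 and TS30, CHO-free TS35 and TS36). It was dim, with a mean of 3.88 in Control mice, within the span of the nonspecific control probe sets. The CHO-free mean of 4.50 was just above that span, and 1 of its 2 probe sets was called. Slc7a7, the basolateral exporter of cationic amino acids, averaged 8.20 ± 0.22 in CHO-free and 9.43 ± 0.12 in Control mice, and fell by 1.23 on the log2 scale there and by 1.05 after fasting.

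The list of glutamine and glutamate enzymes moved mostly with fasting, which raised 6 of 19 and lowered 1. Besides Glud1 it raised Asns, asparagine synthetase, by 1.21, and the alanine transaminases Gpt by 1.12 and Gpt2 by 0.96 on the log2 scale. Glyctk, glycerate kinase, is in this list but acts on glycerate, and fell by 1.24 after fasting and by 0.83 on the CHO-free diet. On the CHO-free diet Glud1 and Glyctk were the 2 called genes of the 19 in the list. Pck1, the gluconeogenic carboxykinase, rose by 0.80 on the protein-free diet, to 3.54 ± 0.22 in protein-free mice against 2.74 ± 0.12 in Control mice (SD, n = 5 each), levels below the median of all probe sets and within the span of the nonspecific control probe sets. Fasting raised Pck1 as well, by 0.65, a call lost without fasted mouse K344. It also raised Pck2 by 0.76, on 1 of its 2 probe sets.

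Proton and ammonium secretion had 2 of 16 genes called after fasting and 0 of 16 on the CHO-free diet. The exception in size was Slc9a8 (NHE8), another sodium-proton exchanger of the tubule, at 4.29 ± 0.22 in fasted mice (n = 4) and 6.97 ± 0.14 in SDS-fed mice (n = 5), a log2 fold change of -2.68 (SE 0.11, limma adjusted p = 1.07e-07), with its second probe set called lower too. The ammonia channel Rhcg read 8.58 ± 0.30 in CHO-free and 8.10 ± 0.42 in Control mice, and its log2 fold change of 0.48 did not pass (adjusted p = 0.0643). After fasting Rhcg gave -0.33 (adjusted p = 0.00884), below the fold minimum.

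In bicarbonate handling, Car4, a membrane carbonic anhydrase, and Slc26a1, a sulfate and bicarbonate exchanger, fell in both diets. Car4 was lower by a log2 fold change of -1.45 after fasting and -1.10 on the CHO-free diet, and Slc26a1 by -1.41 and -1.27. Slc26a6, an apical anion exchanger, rose on the CHO-free diet, at 7.49 ± 0.39 in CHO-free and 5.87 ± 0.32 in Control mice (n = 5 each), a log2 fold change of 1.61 (SE 0.17, limma adjusted p = 9.83e-07). After fasting it gave 0.34 (adjusted p = 0.0315), below the fold minimum.

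Of the 8 urea cycle and arginine enzymes, Arg2, the mitochondrial arginase, reached 8.16 ± 0.14 in fasted mice and 5.98 ± 0.34 in SDS-fed mice, a log2 fold change of 2.18 (limma adjusted p = 3.60e-06). On the CHO-free diet Arg2 was called higher too, by 0.81, and stayed called in 5 of 10 fits with 1 mouse left out. Ass1 was called lower after fasting on both of its probe sets (-0.90 and -0.95), and on the CHO-free diet (-0.75) on 1 of the 2. Cps1, carbamoyl phosphate synthetase, gave 1.36 on the CHO-free diet (adjusted p = 0.0368), with 4.43 ± 1.42 in CHO-free and 3.07 ± 0.28 in Control mice, means that also lie within the span of the nonspecific control probe sets. That call was lost without any one of 6 of the 10 mice (Control TS26, TS27, TS28 and TS29, CHO-free TS34 and TS36), and with the Gapdh difference as a covariate. Under the same covariate 9 of the 16 list genes called on the CHO-free diet stayed called, and besides Cps1 the calls of Slc1a5, Slc25a12, Slc25a13, Nr3c1, Elavl1 and Ass1 were lost.

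**Figure D3:**
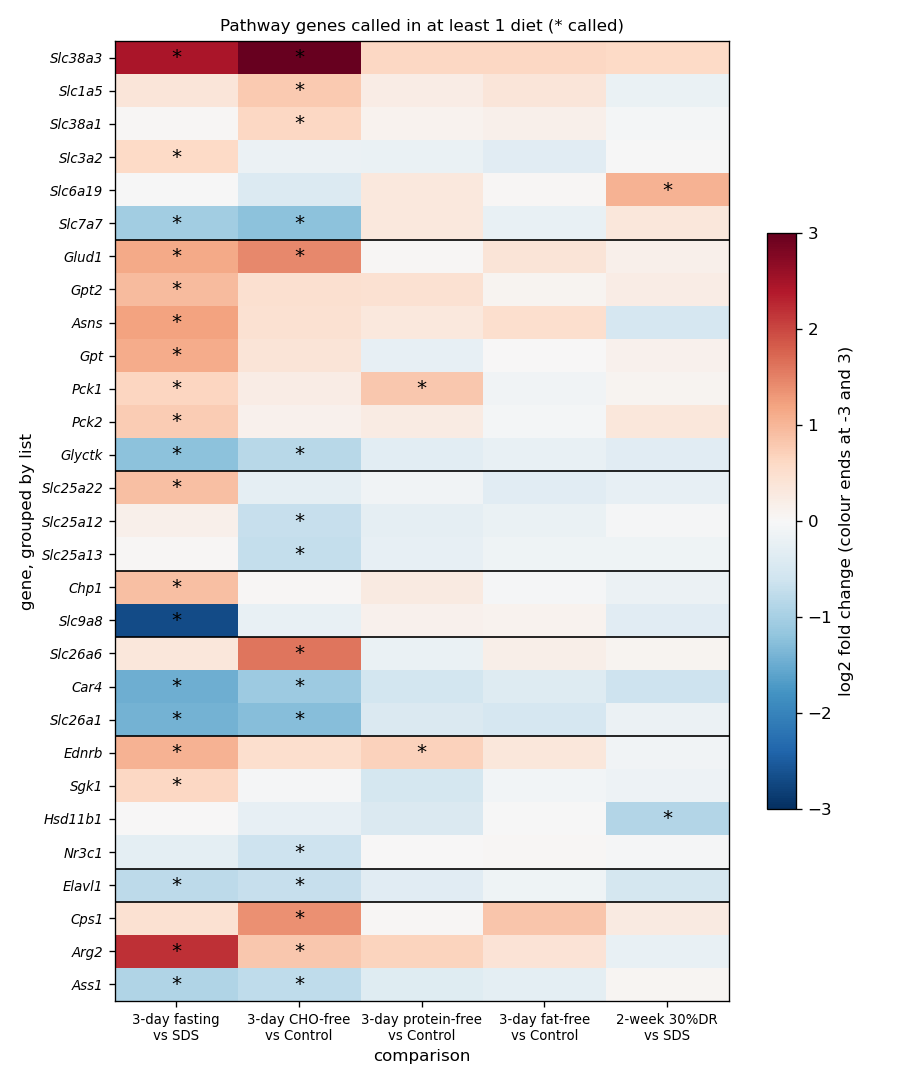
Log2 fold change (colour, red higher and blue lower than the control group, ends at -3 and 3) of the pathway genes called in at least 1 diet, by comparison, with a star on each call. Horizontal lines part the lists. Slc38a3 and Glud1 are starred under fasting and the CHO-free diet, and the fat-free column holds no star.

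In the remaining diets the lists held few calls. Ednrb, an endothelin receptor, rose by 0.70 on the protein-free diet and by 1.04 after fasting on the log2 scale, on 1 of its 2 probe sets. Under 30%DR, Slc6a19, the apical transporter of neutral amino acids including glutamine, averaged 10.70 ± 0.32 in restricted mice (n = 5) and 9.66 ± 0.16 in SDS-fed mice (n = 3), a log2 fold change of 1.04 (limma adjusted p = 0.00737) that was not called without SDS-fed mouse TS58. Hsd11b1, which regenerates active glucocorticoid, fell by 0.88 under 30%DR. None of these genes was called on the CHO-free diet.

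The genes whose signal tracked the members most closely over the 27 arrays were ranked by Pearson's r, as a description. These points include 5 CHO-free mice that stand apart from the rest, and arrays of a group share their diet. Closest to Slc38a3 were Bcl7c (0.92), Glud1 (0.92), Iqgap2 (0.92), Slc13a2, the renal dicarboxylate and citrate transporter (0.91), and Gpc1 (0.91). Closest to Glud1 were Fam25c (0.97), Iqgap2 (0.95), Slc38a3 (0.92), Bcl7c (0.91) and Slc26a6 (0.91).

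Once each group's mean was taken out, the r of Slc38a3 with Glud1 was 0.00, and that with Gpc1 was 0.85. Over the arrays as they are, Slc9a3 was closest to Klf13 (0.82) and Tns2 (0.79), and its r was 0.34 with Slc38a3 and 0.23 with Glud1 before the group means were taken out, and 0.63 and 0.25 after.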

How the data were processed

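Mouse kidney RNA was hybridized to Affymetrix HT MG-430 PM arrays. The authors deposited log2 values made with RMA, run separately on the 9 arrays of the fasting cohort and on the other 27 (version not given in the sources used here). Values of 2.00 to 13.9 entered the tests as deposited. The 2 SDS groups carry the same diet label and were told apart by the animal series in their titles. Diets were tested against their own controls, and Control against SDS, in limma 3.58.1 (R 4.3.3, default eBayes), 1 model a cohort, with Benjamini-Hochberg adjustment over 45141 probe sets and the thresholds of the methods, a fold change of 1.5 or more at a false discovery rate below 5%. The main probe set of a gene is the one of highest mean over the 27 arrays. Of all probe sets, 28898 carry 1 gene symbol and 551 carry several. No 2 arrays were alike (highest r 0.997, at most 4.00% identical values). The fit was tested on simulated data. Up to 6 called list genes of largest change in each comparison were named, and others where a role needed them. The members and lists were chosen with earlier results of these data known. Alternatives changed the prior, normalization, filters, weights, samples and covariates. Promoters are from RefSeq (GRCm38.p6). The number of arrays limits the precision. Figures used matplotlib 3.10.9.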

Additional observations from a re-analysis of the deposited data

Results flagged for a closer look

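In 2 of 35 sets of values, each 1 probe set in 1 group of 4 or 5 mice, 1 mouse stood apart from the others by Dixon's ratio. Chance gives this in about 1 in 20 independent sets, and these sets share mice. For Glud1, SDS-fed mouse K346 of the fasting cohort read 11.40, with the other 4 at 11.27 to 11.31, and fat-free mouse TS41 read 11.28, with the other 3 at 11.46 to 11.49. Neither changes which genes were called.

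Diet effects differed by limma's test of the difference itself for Slc38a3 and Glud1. Slc38a3 gave -3.47 for protein-free minus CHO-free, 3.46 for CHO-free minus fat-free and -3.49 for the 30%DR effect minus the CHO-free effect (log2). Glud1 gave -1.40, 1.05 and -1.28 for the same differences.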

How the results depend on the processing

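Of 579 values of Slc38a3, Glud1 and Slc9a3 under an alternative setting, 558 kept their direction and their side of the threshold, 20 changed sign and 1 passed newly, Slc9a3 after fasting with no fold minimum (-0.34). All calls of Slc38a3 and Glud1 held under every alternative run. Left-out values of Slc38a3 ranged from 3.98 to 4.24 on the CHO-free diet and from 2.40 to 2.54 after fasting, and those of Glud1 from 1.38 to 1.504 and from 1.08 to 1.16.

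The sign changes were of uncalled values near 0. Glud1 became -0.024 for protein-free with probe sets averaged and 0.0099 for Control over SDS with array medians subtracted. Slc9a3 became -0.0059 for Control over SDS with added quantile normalization, 0.026 for protein-free minus CHO-free with the Gapdh covariate, and 0.031 and 0.0040 for CHO-free minus fat-free with quantile normalization and array weights. With 1 mouse left out, Glud1 ranged from -0.0084 to 0.077 for protein-free and from -0.082 to 0.070 for Control over SDS. Slc9a3 ranged from -0.053 to 0.097 for Control over SDS and from -0.082 to 0.081 for CHO-free minus fat-free, and Slc38a3 from -0.13 to 0.14 for protein-free minus fat-free.

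Counts of pathway genes moved more. With no fold minimum they were 38 for fasting (20 with it), 26 for CHO-free (16), 6 for protein-free (2) and 5 for 30%DR (2). With the Gapdh covariate CHO-free had 10, and with probe sets above the median signal protein-free had 1. With 1 mouse left out, 30%DR ranged from 1 to 3, with 1 without SDS-fed TS58, and Control over SDS from 0 to 1, with 1 without Control TS30. The causes were not tested.

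No paired analysis was possible because the labels give the groups no shared replicate numbers. The number of arrays limits the precision, with 3 to 5 arrays a group.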
